A study of Homo sapiens with 8 samples.

Results

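Integrins, laminins, collagens, fibronectin, the matrix metalloproteinases and their inhibitors make up the core of what an epithelial cancer cell builds around itself, holds on to and cuts. They were described here in T3M4, an established human pancreatic cancer cell line, as 91 genes of the 14668 in the deposited count table. The genes were taken by symbol: 21 integrin subunits, 11 laminin chains, 39 collagen chains, 15 matrix metalloproteinases (MMP), 4 tissue inhibitors of metalloproteinases (TIMP) and fibronectin (FN1). Cells carrying a guide RNA against METTL13 (sgMETTL13) were set against cells carrying a non-targeting guide (sgControl), and the label of every library gives the same line and no other allele. METTL13 is a methyltransferase of the translation elongation factor eEF1A. All cells went 18 h without serum and then received 10% FBS for 2 h, so every value below is from cells recently returned to serum. Poly(A) RNA-seq measured mRNA, and ribosome profiling measured mRNA fragments protected by ribosomes (footprints), with 2 libraries for each guide and assay, 8 in all. Nothing in the labels gives the source of the 2 libraries of a group, or says whether the cells were a pool or 1 clone, so the spread between libraries may be technical.

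Integrins are receptors of an alpha and a beta subunit that bind matrix outside the cell and link it to actin or keratin filaments inside. Laminins are trimers of an alpha, a beta and a gamma chain, and with type IV collagen they form the sheets of the basement membrane. Collagens are trimers of chains that need hydroxylation and a dedicated chaperone before they leave the endoplasmic reticulum. MMPs cut these proteins at the cell surface or outside it, and TIMPs block them. In pancreatic cancer the surrounding stroma makes most of the fibrillar collagen, while the cancer cells themselves express basement membrane chains and laminin-binding integrins.

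Footprint libraries held 6063885 to 9837253 counts and RNA libraries 20860953 to 48353722, and the 91 genes took 1.03% to 1.08% of footprints and 0.68% to 0.748% of RNA counts. Levels are given as CPM, counts scaled to the TMM-adjusted library total. The guide's target read 65.2 and 57.8 CPM of footprints in sgControl against 20.1 and 26.2 CPM in sgMETTL13, so the libraries go with their labels. Epithelial markers fixed as a list were all present (10 of 10), with summed footprints of 2248 and 2394 CPM in sgControl against 2211 and 2262 CPM in sgMETTL13. Summed fibroblast markers (6 of 9 in the table) ran from 57.6 to 65.2 CPM in all 4 footprint libraries, nearly all of it PDPN, which epithelial cancer cells can also express, and PDGFRB and FAP were at or near 0. The 5 endothelial markers summed to 1.2 CPM or less in footprints and to 1.59 CPM or less in RNA. The leukocyte markers (4 of 7 in the table) summed to 1.57 and 1.2 CPM of footprints in sgControl and 1.83 and 1.98 CPM in sgMETTL13, and to between 21.0 and 49.9 CPM in RNA, nearly all of it CD68 in RNA, while PTPRC had at most 0.102 CPM; their part in any result was not tested. Markers of an embryonic kidney line (4 of 5 in the table) summed to 114 and 131 CPM in sgControl footprints and 76.1 to 86.5 CPM in sgMETTL13, most of it NEFL, with GATA3 and NEFM at or near 0, and the part of this in any result was not tested. The RNA libraries of sgMETTL13 stood far apart from each other: the SD over genes of the log2 difference between its 2 libraries was 0.91, while it was 0.427 for the sgControl RNA pair, 0.348 for the sgControl footprint pair and 0.295 for the sgMETTL13 footprint pair.

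Of the 91 genes, 51 had enough footprints to be tested and 65 enough mRNA. The other 40 in footprints are part of the description: 31 of the 91 had under 5 counts in every footprint library, 17 had under 5 counts in all 8 libraries, and COL6A5 had no count at all. The gaps follow the roles. Of 11 laminin chains 10 were tested, with only LAMA4, a chain of vessel and muscle laminins, missing. Of 39 collagens 18 were tested. COL1A1, the alpha 1 chain of type I collagen, had 24.1 and 21.9 CPM in sgControl against 21.5 and 19.9 CPM in sgMETTL13, whereas COL1A2, its partner in the usual heterotrimer, had 0 counts in all 4 footprint libraries and at most 0.193 CPM of mRNA. A count of 0 allows up to 3 counts, or 0.512 CPM at the lowest footprint depth, and covers counting error only. COL6A3 likewise had 0 footprints beside 18.7 to 31 CPM of COL6A1, and COL3A1 had at most 0.11 CPM. The leukocyte integrin chains ITGAL, ITGAM, ITGAX and ITGB2 were each at or below 0.171 CPM of footprints. ITGAE, whose integrin holds lymphocytes to epithelial E-cadherin, was tested, with 4.11 and 4.62 CPM of footprints in sgControl against 4.37 and 4.17 CPM in sgMETTL13. The gelatinases MMP2 and MMP9 each had at most 0.22 CPM of footprints. These low genes were singled out after their values were seen.

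Among genes whose values are given below, pairs of collagen genes lie head to head, so that their chains start from one stretch of DNA. COL4A1 and COL4A2 start 127 bases apart on chromosome 13 on opposite strands. The bases between the starts are shown because both genes read lower in the footprints of sgMETTL13. The mRNA of both genes overlapped between the guides. COL4A6 and COL4A5 start 380 bases apart on chromosome X, and the bases common to both promoter windows are shown because footprint changes of both genes were near 0. Capitals mark GGGCGG or CCGCCC, the GC box bound by Sp1 and its relatives and searched on both strands. The sequences are RefSeq's, build GRCh38.p14, read on the plus strand.
COL4A1-COL4A2, chr13:110307158-110307283: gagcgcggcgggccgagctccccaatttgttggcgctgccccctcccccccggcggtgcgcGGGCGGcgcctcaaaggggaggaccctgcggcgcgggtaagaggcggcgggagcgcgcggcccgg
COL4A6-COL4A5, chrX:108439588-108439708: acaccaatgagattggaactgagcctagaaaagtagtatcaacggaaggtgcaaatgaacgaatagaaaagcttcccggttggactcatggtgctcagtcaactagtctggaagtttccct

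The stretches shown differ in base composition, at 80.2% G and C in the first and 44.6% in the second. The first holds 1 GC box and the second none. They are unlike parts of their promoters. The first reaches both starts, while the second leaves out the bases next to each start, so the pairs are not compared like for like. A promoter was on hand for 60 of the 91 genes, and where the table gives a gene several starts the outermost was used. In the 250 bases before the start, 34 of those 60 (56.7%) held a GC box, against 42.2% of the 27305 genes in the table. Besides COL4A1, 6 of the genes that passed in footprints had an entry, and their 250 bases are shown in the direction of transcription, with GC boxes in capitals.
COL18A1, chr21:45404915-45405164, plus strand: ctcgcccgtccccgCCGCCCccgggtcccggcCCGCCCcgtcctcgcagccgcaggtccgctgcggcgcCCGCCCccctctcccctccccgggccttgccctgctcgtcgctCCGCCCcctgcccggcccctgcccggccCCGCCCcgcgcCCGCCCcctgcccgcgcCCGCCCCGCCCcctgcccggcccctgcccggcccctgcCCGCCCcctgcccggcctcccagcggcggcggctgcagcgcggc
COL5A3, chr19:10010505-10010754, minus strand: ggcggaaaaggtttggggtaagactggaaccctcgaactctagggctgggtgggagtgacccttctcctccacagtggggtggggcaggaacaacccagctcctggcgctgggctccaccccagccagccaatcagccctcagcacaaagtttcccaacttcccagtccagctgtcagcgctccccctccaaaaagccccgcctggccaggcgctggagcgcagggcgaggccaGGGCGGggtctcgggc
COL7A1, chr3:48595330-48595579, minus strand: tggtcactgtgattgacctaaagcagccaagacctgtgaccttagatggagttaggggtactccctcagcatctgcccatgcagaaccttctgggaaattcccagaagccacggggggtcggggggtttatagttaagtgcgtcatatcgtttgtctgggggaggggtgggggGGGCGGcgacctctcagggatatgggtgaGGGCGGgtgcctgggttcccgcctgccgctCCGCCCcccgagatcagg
MMP15, chr16:58025504-58025753, plus strand: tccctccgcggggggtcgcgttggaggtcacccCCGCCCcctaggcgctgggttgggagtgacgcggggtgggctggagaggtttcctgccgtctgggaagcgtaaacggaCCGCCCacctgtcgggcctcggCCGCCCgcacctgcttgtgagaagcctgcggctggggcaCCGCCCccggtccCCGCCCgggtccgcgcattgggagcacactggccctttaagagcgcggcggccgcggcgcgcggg
ITGB1, chr10:32958231-32958480, minus strand: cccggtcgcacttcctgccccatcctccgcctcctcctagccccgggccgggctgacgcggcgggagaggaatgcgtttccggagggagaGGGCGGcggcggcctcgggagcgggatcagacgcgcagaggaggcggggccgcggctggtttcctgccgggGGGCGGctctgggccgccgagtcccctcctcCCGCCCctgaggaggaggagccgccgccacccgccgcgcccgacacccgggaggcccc
ITGA2, chr5:52989102-52989351, plus strand: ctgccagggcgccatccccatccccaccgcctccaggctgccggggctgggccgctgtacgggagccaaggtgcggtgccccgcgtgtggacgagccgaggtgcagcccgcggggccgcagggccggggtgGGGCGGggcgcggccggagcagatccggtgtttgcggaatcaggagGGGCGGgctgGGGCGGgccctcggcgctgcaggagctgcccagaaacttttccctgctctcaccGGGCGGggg

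GC boxes stood before genes that were higher (ITGB1 with 3, ITGA2 with 4) and before genes that were lower (COL18A1 with 9, of which 1 pair overlaps by a base, MMP15 with 5, COL7A1 with 3 and COL5A3 with 1), so the letters were found on both sides. AP-1 is the dimer of FOS and JUN proteins that serum induces. The other motif searched, TGANTCA on both strands, allows any base at the middle of the AP-1 site and is looser than its consensus. This motif occurred in 3 of the 60 promoters (5%), against 6.57% of all. The first match in each is shown with 20 bases on each side and the motif in capitals, in the direction of transcription.
MMP7, chr11:102530788-102530834, minus strand: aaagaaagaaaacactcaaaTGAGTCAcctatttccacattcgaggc
MMP10, chr11:102780669-102780715, minus strand: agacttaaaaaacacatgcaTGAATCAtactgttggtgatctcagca
LAMA3, chr18:23872875-23872921, plus strand: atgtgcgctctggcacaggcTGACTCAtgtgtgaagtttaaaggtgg

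The match in MMP7 and in MMP10 begins 67 bases before the start, and the one in LAMA3, the first of 2 in its window, begins 125 bases before the start in the table. That start of LAMA3 is an internal one, 183567 bases inside the gene from its outermost end. Their footprint changes had no common direction, at -1.06 for MMP7, 0.22 for MMP10 and 0.17 for LAMA3 on the log2 scale, and none of the 3 passed the test. These matches describe the letters only.

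In footprints, 8 of the 51 tested genes (15.7%) passed edgeR's quasi-likelihood test at an adjusted p below 0.05, against 21.0% of the 10714 genes tested. Of the 8, ITGA2, ITGB1 and MMP1 were higher in sgMETTL13 (3 of 51, against 8.94% of all genes higher) and COL18A1, COL5A3, COL7A1, COL4A1 and MMP15 were lower (5 of 51, against 12.0% of all genes lower). The share called is below the background in each direction, and a gene could pass the filter on low counts through 1 arm. In 32 of the 51 the arms did not overlap, against 64.1% of all tested genes. By role, 4 of 18 collagens passed lower and none higher, 2 of 12 integrins passed higher and none lower, none of 10 laminins passed, and 1 of 8 MMPs passed each way. Counts of this size are too small to read against the shares over all genes. DESeq2 gave an adjusted p for 42 of the genes, COL5A3 not among them, and called COL18A1, COL7A1, ITGA2 and ITGB1 (9.52%, against 16.9% of all genes). One model over all 8 libraries called no gene at all in footprints. The median log2 change was -0.02 over the 51 genes and 0.01 over all genes.

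**Figure D1:**
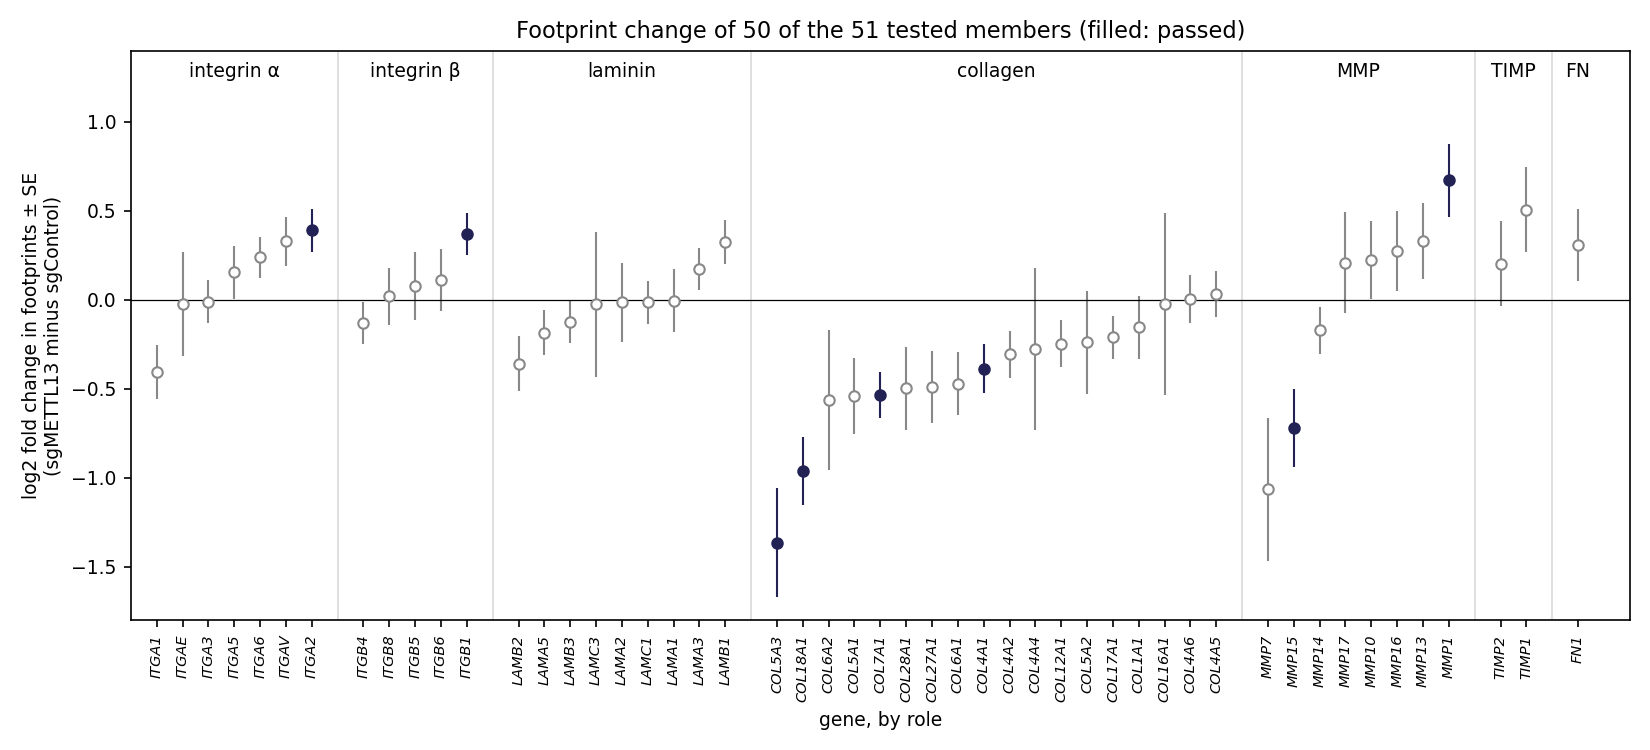
Each point is the log2 fold change in footprints (sgMETTL13 minus sgControl) of 1 gene (50 of the 51 tested are drawn), ordered within its role, and the bar is 1 SE; filled points passed at an adjusted p below 0.05. Collagens sit below 0 in 16 of 18 cases, and COL5A3 (-1.36) and MMP1 (0.67) are the ends of the range.

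Collagens mostly read lower in sgMETTL13. Of 18 tested chains 16 were lower in sgMETTL13, with a median log2 change of -0.35 and a range from -1.36 to 0.03. In 14 of the 18 both sgMETTL13 libraries lay below both sgControl libraries (against 32.0% of all tested genes), in none above (against 32.0%). With 1 of the 4 footprint libraries left out in turn, the median stayed between -0.39 and -0.30, and 15 to 18 of the 18 were negative. The chains are members of the same gene family and are not independent measurements. The sgControl libraries also differed in these genes: replicate 2 was above replicate 1 for 13 of 18 collagens (median log2 difference 0.15), away from sgMETTL13. The part of that gap in the result was not tested beyond the values with each library left out.

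COL18A1, the basement membrane collagen whose end fragment is endostatin, had 23.6 and 33.9 CPM of footprints in sgControl against 15.3 and 13.8 CPM in sgMETTL13. Both sgMETTL13 libraries were below both controls, and the controls themselves were unequal. The log2 change was -0.96 (SE 0.194, n = 2 per arm, adjusted p = 0.000777). The mRNA of COL18A1 stood at 10.7 and 11.4 CPM in sgControl against 7.88 and 12.3 CPM in sgMETTL13, and these overlapped. COL5A3 (chr19:9959561-10010504), a minor chain of the type V collagen that regulates fibril width, had 6.05 and 5.64 CPM of footprints in sgControl against 2.13 and 2.42 CPM in sgMETTL13, from 21 to 50 counts per library. The arms were well separated, with a log2 change of -1.36 (SE 0.306, n = 2 per arm, adjusted p = 0.00212). COL5A3 mRNA was also lower in both sgMETTL13 libraries, at 1.22 and 1.45 CPM against 1.7 and 2.12 CPM, without passing (log2 change -0.51, SE 0.45). COL18A1 and COL5A3 passed with any 1 footprint library left out, and no other gene of the 91 did.

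COL7A1, the collagen of the fibrils that anchor epithelium to the tissue beneath, had 223 and 269 CPM in sgControl against 176 and 164 CPM in sgMETTL13. All 4 libraries were apart by arm (log2 change -0.53, SE 0.131, n = 2 per arm, adjusted p = 0.00425). Its mRNA went the other way in 1 library only, at 50.7 and 52.9 CPM in sgControl against 49.4 and 78.8 CPM in sgMETTL13. Without sgControl replicate 2 the COL7A1 change was -0.40 and no longer passed (adjusted p = 0.0699), and without sgMETTL13 replicate 2 it was -0.48 (adjusted p = 0.109). COL17A1, the transmembrane collagen of hemidesmosomes, had 829.8 and 998.6 CPM in sgControl against 813 and 766 CPM in sgMETTL13. Its arms did not overlap, but the nearest libraries lay close together, and it did not pass (log2 change -0.21, SE 0.121).

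COL4A1 and COL4A2, which share the stretch shown above and are assembled into one trimer, had log2 changes of similar size. COL4A1 had 120.4 and 135 CPM in sgControl against 103.7 and 91.8 CPM in sgMETTL13 (log2 change -0.39, SE 0.136, n = 2 per arm, adjusted p = 0.0415). COL4A2 had 145.5 and 150.3 CPM against 121 and 118 CPM, and missed the threshold (log2 change -0.31, SE 0.13, adjusted p = 0.0896). The footprint arms were separate in both genes. In mRNA the arms overlapped in both, with log2 changes of -0.03 (SE 0.404) for COL4A1 and -0.13 (SE 0.394) for COL4A2. The COL4A1 call was lost without sgControl replicate 2 (-0.31, adjusted p = 0.247), without sgMETTL13 replicate 1 (-0.48, adjusted p = 0.0856) and without sgMETTL13 replicate 2 (-0.30, adjusted p = 0.412). COL4A5 and COL4A6, the chains of the other type IV trimer made by epithelia, had log2 changes of 0.03 (SE 0.128) and 0.00 (SE 0.134), with 166 to 183 CPM and 102 to 109 CPM over the 4 libraries. The difference between the 2 pairs was not tested.

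**Figure D2:**
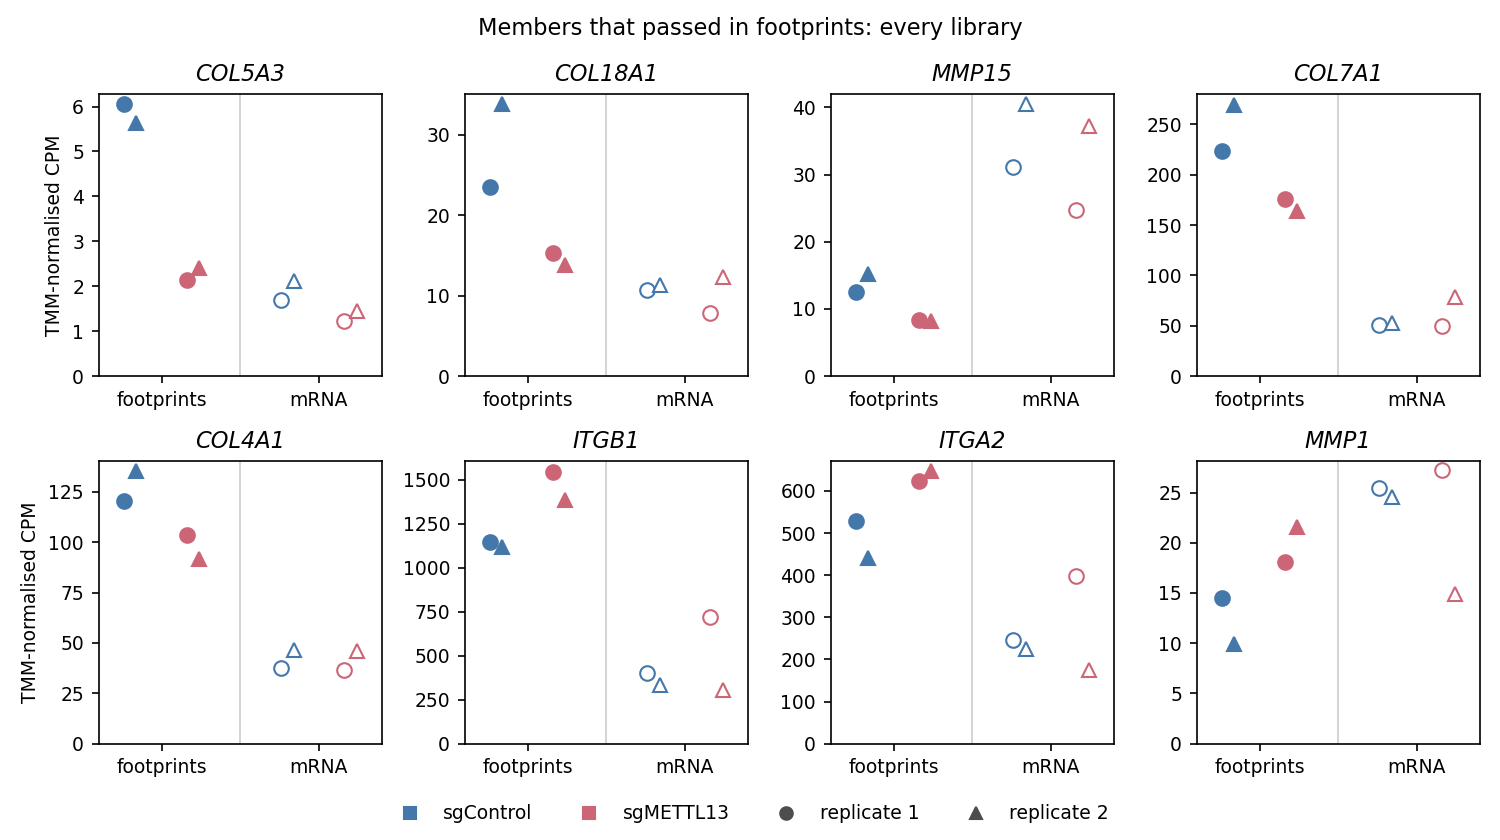
Each panel shows 1 gene that passed in footprints, with TMM-normalised CPM of every library on a linear axis from 0; filled symbols are footprints and open symbols mRNA, blue is sgControl and red sgMETTL13, circles are replicate 1 and triangles replicate 2. Footprint arms are separate in all 8 panels, while the mRNA of ITGB1, ITGA2 and MMP1 is much higher in sgMETTL13 replicate 1 than in replicate 2.

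Integrin subunits lay on both sides of 0. Of 12 tested subunits 8 were higher in sgMETTL13 and 4 lower, with a median log2 change of 0.09. ITGB1, the beta subunit shared by most matrix-binding integrins, had 1146 and 1120 CPM of footprints in sgControl against 1545 and 1385 CPM in sgMETTL13. Both sgMETTL13 libraries were above both controls (log2 change 0.37, SE 0.117, n = 2 per arm, adjusted p = 0.0231). ITGA2, which with ITGB1 forms a collagen receptor, had 529 and 440.3 CPM in sgControl against 623 and 648 CPM in sgMETTL13, again with the arms apart (log2 change 0.39, SE 0.123, n = 2 per arm, adjusted p = 0.0231). The log2 footprint ratio of ITGA2 to ITGB1 within a library overlapped between the arms, at -1.12 and -1.35 in sgControl and -1.31 and -1.10 in sgMETTL13. In mRNA this ratio was lower in both sgMETTL13 libraries, at -0.85 and -0.80 against -0.71 and -0.57 in sgControl. Neither call held when sgControl replicate 2 (ITGA2 0.26, ITGB1 0.35), sgMETTL13 replicate 1 (0.41 and 0.28) or sgMETTL13 replicate 2 (0.36 and 0.45) was left out, with adjusted p from 0.0767 to 0.302.

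The remaining integrins were described by their levels. ITGA1, the other collagen-binding alpha subunit that was tested, had 51.8 and 56.3 CPM in sgControl against 42.8 and 38.6 CPM in sgMETTL13. Its arms were apart in the direction opposite to ITGA2 (log2 change -0.41, SE 0.151, adjusted p = 0.0534). ITGAV, which binds RGD sequences in fibronectin and the latent form of TGF-beta, had 139 and 107 CPM against 155 and 155 CPM (log2 change 0.33, SE 0.138), where the gap between the controls was wider than that between the nearest arms. ITGA5, the main fibronectin receptor subunit, read 50.8 and 44.8 CPM against 52.1 and 54.7 CPM. ITGA3, a laminin receptor subunit, overlapped at 492 and 504 CPM against 459 and 529.8 CPM. The partners ITGB5, ITGB6 and ITGB8 had log2 changes of 0.08, 0.11 and 0.02.

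Hemidesmosomes join keratin to the basement membrane through the integrin of ITGA6 and ITGB4, and the laminin that holds LAMA3 and LAMB3 is its ligand. ITGA6 had 1155 and 1137 CPM of footprints in sgControl against 1321 and 1386 CPM in sgMETTL13 (log2 change 0.24, SE 0.115), and ITGB4 had 1634 and 1915 CPM against 1665 and 1580 CPM (log2 change -0.13, SE 0.118). Neither passed. Their log2 footprint ratio within a library was -0.50 and -0.75 in sgControl and -0.33 and -0.19 in sgMETTL13, so more ITGA6 per ITGB4 was read in both sgMETTL13 libraries. The gap between the controls was wider than that between the nearest arms. In mRNA the ratio of ITGA6 to ITGB4 overlapped, at -1.31 and -2.01 in sgControl against -0.13 and -1.96 in sgMETTL13. Ratios are compared only across libraries, since they also hold the lengths of the 2 genes, and with 2 libraries per arm an exact permutation test cannot go below p = 0.333, so none was run.

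Laminins gave no call in footprints, and their 10 tested chains had a median log2 change of -0.02. LAMA3 had 572 and 553 CPM in sgControl against 635 and 635 CPM in sgMETTL13. LAMB3 had 768 and 821 CPM against 735 and 724 CPM. The arms were apart in both genes, with sgMETTL13 on the high side for LAMA3 and on the low side for LAMB3 (log2 changes 0.17 and -0.12). The log2 ratio of LAMB3 to LAMA3 within a library was 0.43 and 0.57 in sgControl against 0.21 and 0.19 in sgMETTL13, a mean difference of -0.30. In mRNA this ratio overlapped between the arms.

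LAMB1 and LAMB2 are alternative beta chains that join LAMC1. LAMB1 had 317 and 276 CPM of footprints in sgControl against 359.8 and 384 CPM in sgMETTL13 (log2 change 0.33, SE 0.124, adjusted p = 0.059), and LAMB2 had 43.1 and 39.8 CPM against 33.1 and 31.6 CPM (log2 change -0.36, SE 0.156, adjusted p = 0.0977). LAMC1 overlapped between the arms, at 383 and 397 CPM against 374 and 398 CPM. The log2 footprint ratio of LAMB1 to LAMC1 was -0.27 and -0.52 in sgControl and -0.06 and -0.05 in sgMETTL13. The gap between the controls was wider than that between the nearest arms. In mRNA the ratio of LAMB1 to LAMC1 was also higher in both sgMETTL13 libraries, at -0.69 and -0.53 against -0.81 and -0.85. The log2 ratio of LAMB2 to LAMB1 was -2.88 and -2.79 in sgControl and -3.44 and -3.60 in sgMETTL13, a mean difference of -0.69 and the widest shift among the 11 ratios of 1 chain to 1 chain. Its mRNA ratio overlapped, at -2.71 and -2.46 against -2.98 and -2.39. LAMA5, the alpha chain of most epithelial basement membranes, had a log2 footprint change of -0.18 (SE 0.129).

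**Figure D3:**
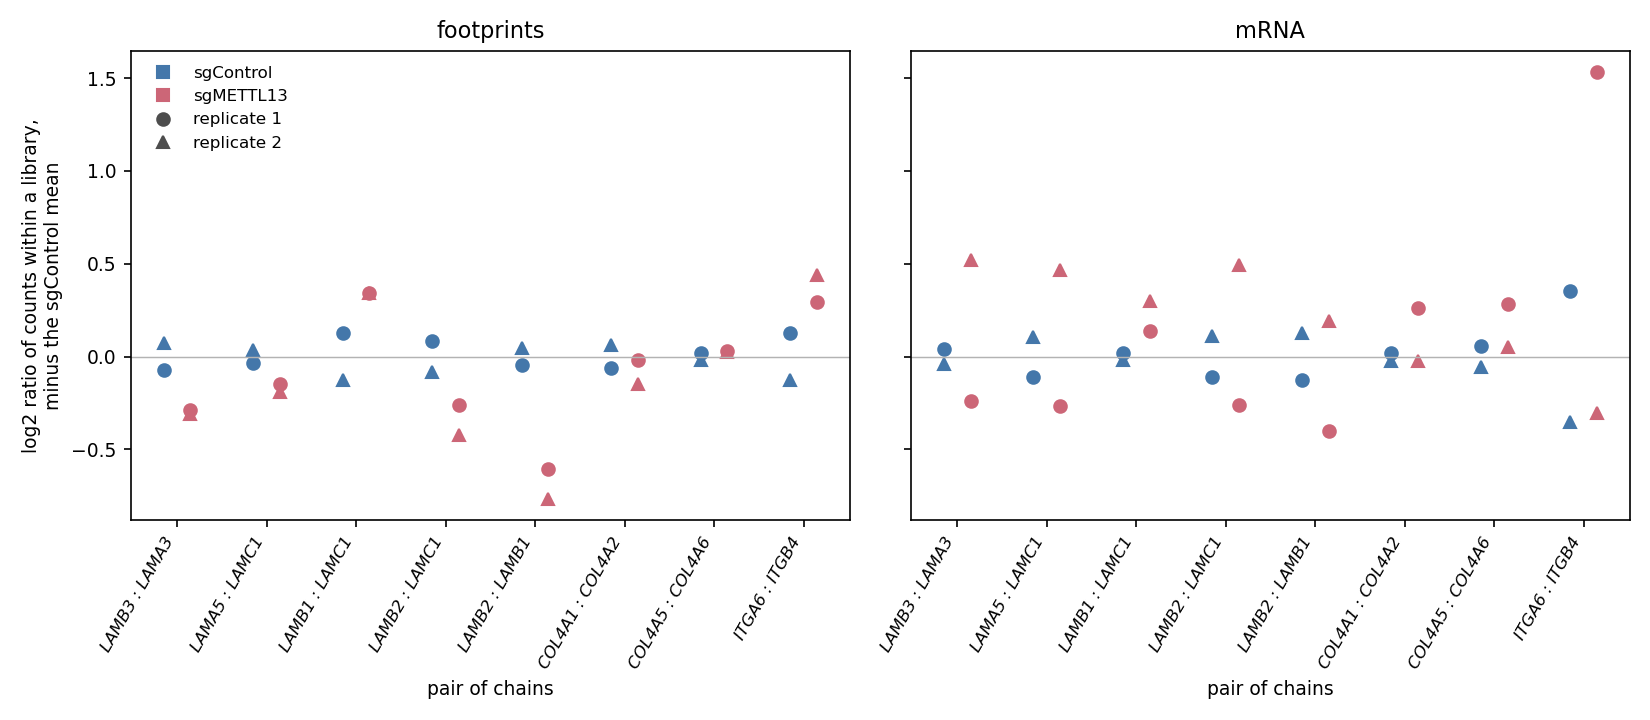
Points are log2 ratios of the counts of 1 chain to another within 1 library, minus the mean of the 2 sgControl libraries. The 8 pairs are shown in footprints (left) and mRNA (right), and LAMB2 and LAMB1 are alternatives rather than partners. Blue is sgControl, red sgMETTL13, circles replicate 1 and triangles replicate 2. In footprints the sgMETTL13 libraries lie together and furthest from 0 for LAMB2 to LAMB1, while in mRNA the ratio of ITGA6 to ITGB4 differs most between the 2 sgMETTL13 libraries.

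Of the MMPs 8 of 15 were tested. MMP1 (chr11:102789919-102798160), an interstitial collagenase, had 14.5 and 9.92 CPM of footprints in sgControl against 18.1 and 21.5 CPM in sgMETTL13 (log2 change 0.67, SE 0.207, n = 2 per arm, adjusted p = 0.0205). Both sgMETTL13 libraries were above both controls, which differed from each other by more than the nearest libraries of the 2 arms did. The MMP1 change was 0.44 without sgControl replicate 2 (adjusted p = 0.26), 1.00 without sgControl replicate 1 (adjusted p = 0.00146) and 0.55 without sgMETTL13 replicate 2 (adjusted p = 0.202). MMP15 (chr16:58025754-58046901), a membrane-anchored protease, had 12.5 and 15.2 CPM in sgControl against 8.43 and 8.23 CPM in sgMETTL13 (log2 change -0.72, SE 0.22, n = 2 per arm, adjusted p = 0.0196). MMP15 lost its call without sgControl replicate 2 (adjusted p = 0.173), sgMETTL13 replicate 1 (0.0659) or sgMETTL13 replicate 2 (0.127), at changes from -0.74 to -0.58. MMP14, the membrane-anchored enzyme that activates MMP2, had 155 and 178 CPM against 154 and 141 CPM (log2 change -0.17, SE 0.132). MMP7, matrilysin, had 2.54 and 2.56 CPM against 1.52 and 0.878 CPM (log2 change -1.06, SE 0.402, adjusted p = 0.057), from few counts.

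TIMP1 and TIMP2 did not pass. TIMP1 had 10.4 and 7.52 CPM of footprints in sgControl against 10.4 and 15.6 CPM in sgMETTL13, and the arms overlapped (log2 change 0.51, SE 0.238, adjusted p = 0.127). TIMP1 did pass when replicate 1 of either arm was left out, at 0.78 (adjusted p = 0.0348) without that of sgControl and 0.77 (adjusted p = 0.0389) without that of sgMETTL13. TIMP2 had a log2 change of 0.20 (SE 0.238), and TIMP3 was at or below 0.508 CPM of footprints in every library. FN1, which integrins assemble into fibrils, had 12.8 and 11.3 CPM against 15.7 and 14.4 CPM (log2 change 0.31, SE 0.204).

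In mRNA none of the 65 tested genes passed, as none did among all 12468 genes (0%; 100 genes at an unadjusted p below 0.05, and none of the 65). DESeq2 called none either. Even METTL13, the guide's own target, did not pass in mRNA. It had 89.7 and 71.4 CPM in sgControl against 25.2 and 35.05 CPM in sgMETTL13 (log2 change -1.42, SE 0.406). A gene without a call in mRNA is therefore not shown to be unchanged. The sgMETTL13 RNA libraries differed widely in some of the 65 genes, as in genes at large. There the log2 gap (replicate 2 minus replicate 1) ran from -4.31 to 2.82. ITGAV mRNA stood at 36.4 and 29.7 CPM in sgControl, then 91.1 CPM in the first sgMETTL13 library and 28.2 CPM in the second. ITGB1 read 404 and 334 CPM, then 718 and 307 CPM. ITGA6 read 554 and 489 CPM, then 1009 and 428 CPM. The sgMETTL13 libraries thus lay on both sides of the controls. ITGA1, ITGA2, ITGB6, ITGB8, MMP1, MMP13 and MMP16 also read higher in replicate 1, with log2 gaps (replicate 2 minus replicate 1) from -1.75 to -0.85, while ITGA3, ITGA5, ITGB4, LAMA5, MMP14 and COL7A1 read higher in replicate 2, with gaps from 0.60 to 0.67. Between the sgMETTL13 footprint libraries the same gap was -0.45 for MMP16 and from -0.21 to 0.24 for the others named here. With sgMETTL13 replicate 1 as the only library of its arm, the median log2 mRNA change of 15 integrins was 0.38, against -0.02 over all genes. Of the 15, 9 were higher and 6 lower. With replicate 2 as the only library, the integrin median was 0.06, against 0.01 over all genes, with 8 higher and 7 lower.

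**Figure D4:**
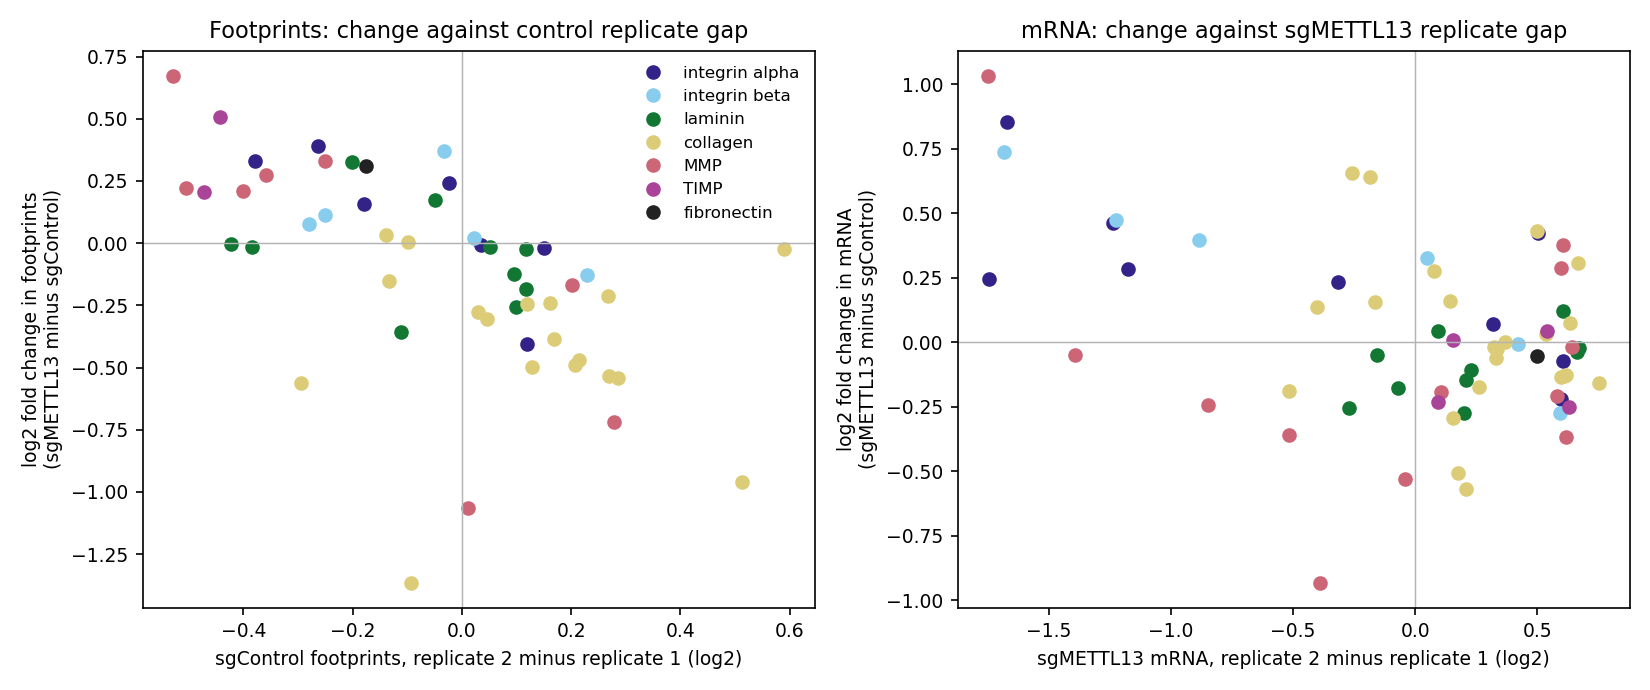
Left, the log2 footprint change of each of the 51 tested genes against the log2 gap between the sgControl footprint libraries (replicate 2 minus replicate 1); right, the log2 mRNA change of 65 genes against the gap between the sgMETTL13 RNA libraries; colours are roles. On the left, genes lower in control replicate 2 tend to be higher in sgMETTL13, and on the right ITGA1, ITGA2, ITGA6, ITGAV, ITGB1, ITGB8, MMP13 and MMP16 lie at gaps of -1.18 or below.

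The left panel bears on every footprint value above. Across the 51 genes the footprint change and the gap between the sgControl libraries had a Pearson r of -0.58 and a Spearman rho of -0.68. Across all 10714 genes the values were -0.52 and -0.56, a similar relation. Both axes use the sgControl libraries, genes are not independent replicates, and no test was made. For each of the 8 genes that passed, except COL5A3, sgControl replicate 1 lay nearer to sgMETTL13 than replicate 2 did. Without sgControl replicate 1, 16 of 52 genes passed (30.8%, against 27.4% of all genes), and without sgControl replicate 2 only 2 of 52 did (3.85%, against 7.49%).

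Translational efficiency, the change in footprints beyond that in mRNA, gave no call among the 51 genes or among all 10446 tested (0%; 347 genes at an unadjusted p below 0.05, none of them among the 51). DESeq2 called 3 genes in all and none of these. The 5 smallest p-values belonged to COL7A1 (log2 change -0.83, SE 0.392), MMP1 (0.95, SE 0.482), COL5A3 (-0.85, SE 0.461), COL18A1 (-0.83, SE 0.456) and TIMP1 (0.78, SE 0.467), beside a median change of -0.11 over all genes. Of 18 collagens 16 were negative, with a median of -0.37. These values turned on which RNA library was used. Without sgMETTL13 RNA replicate 1, COL7A1 (-1.22, adjusted p = 0.0315), COL18A1 (-1.20, adjusted p = 0.0463) and MMP1 (1.34, adjusted p = 0.0384) passed, with MMP13 as the other gene higher, where 4.78% of all genes passed. Without replicate 2 none of the first 3 did. There the calls were ITGAV (-1.09), ITGB8 (-1.30), MMP16 (-1.37) and ITGA1 lower and TIMP1 (1.15) higher, and 13.2% of all genes passed. The collagen median was -0.64 in the first case, against 0.01 over all genes, with 18 of 18 negative. In the second case it was -0.21, against -0.10 over all genes, with 13 of 18 negative.

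Footprints per mRNA in sgControl place these genes among all genes, as a description in which gene length and coding share also enter. The ratio is log2 of footprint over RNA CPM, each with 0.5 CPM added, and the percentile is taken among 10446 genes. The median gene of the 51 lay at percentile 71.3, and 36 of the 51 were above the median gene. COL7A1 (93.9), ITGA1 (93.3), ITGAV (90.8) and COL4A5 (90.4) were highest, and 16 of 18 collagens lay above the median. The secreted inhibitors TIMP1 (4.22) and TIMP2 (9.12) and the membrane-anchored MMP17 (10.7) were lowest. Within the integrins the values split widely, with ITGB1 at 87.9 and ITGA6 at 79.8 but ITGA5 at 23.2 and ITGA3 at 33.3.

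**Figure D5:**
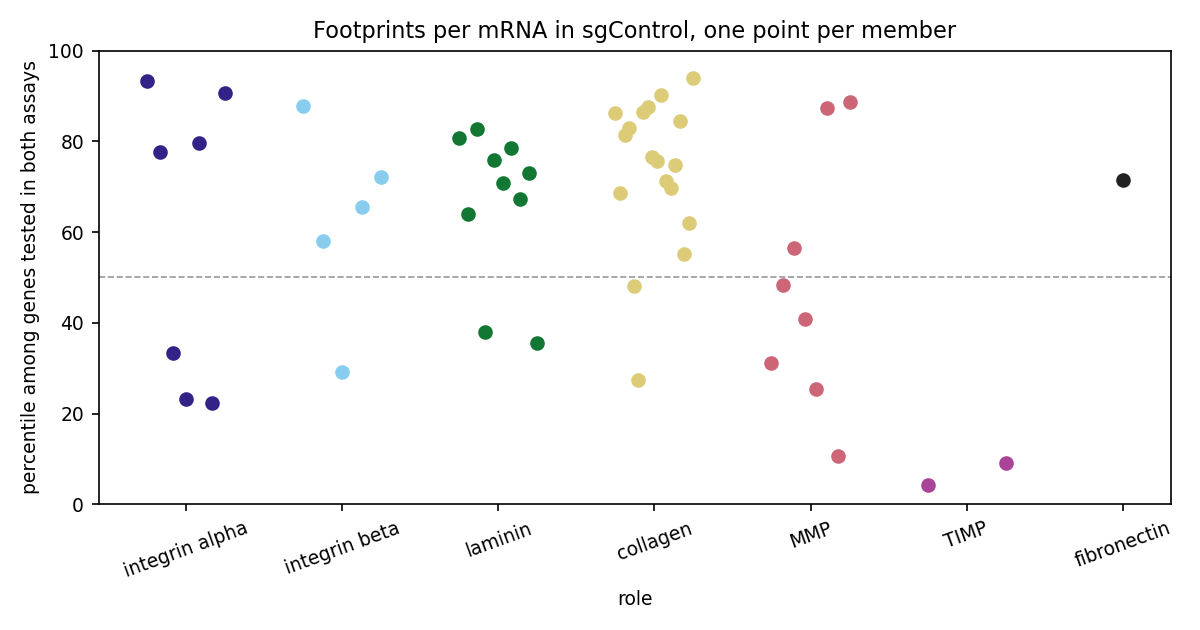
Each point is 1 of the 51 genes tested in both assays, and the vertical axis is the percentile of its footprints per mRNA in sgControl among 10446 genes, by role; the dashed line is the median gene. Collagens lie mostly above the line, and both TIMPs are below percentile 10.

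Other genes of the same machinery were taken from lists. Of the integrin adhesion complex 4 of 42 tested genes were higher (9.52%, against 8.94% of all genes) and 6 lower (14.3%, against 12.0%) in footprints, near the shares over all genes, with a median of -0.03. CAV1, the coat protein of caveolae, rose from 224 and 163 CPM to 313 and 408 CPM of footprints (log2 change 0.90, SE 0.146, adjusted p = 9.22e-05). CRK (-1.11), an adaptor downstream of focal adhesions, ZYX (-0.60), an actin-associated adhesion protein, and PLEC (-0.53), which ties ITGB4 to keratin, fell. The call was lost for CRK without sgControl replicate 2 (-0.74, adjusted p = 0.0733), and for ZYX (-0.49, adjusted p = 0.0944) and PLEC (-0.50, adjusted p = 0.0836) without sgMETTL13 replicate 2. Among 12 other matrix receptors 1 passed each way (8.33%, against 8.94% and 12.0% of all genes): SDC4, a heparan sulfate proteoglycan, rose (0.57) and the laminin receptor DAG1 fell (-0.50). SDC4 missed without sgMETTL13 replicate 2 (0.48, adjusted p = 0.0868), and DAG1 missed without sgControl replicate 2 (-0.36, adjusted p = 0.159), sgMETTL13 replicate 1 (-0.49, adjusted p = 0.0915) or sgMETTL13 replicate 2 (-0.52, adjusted p = 0.106).

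Collagen folding and crosslinking factors lay on both sides of 0. Of 25 tested 1 was higher (4%, against 8.94% of all genes) and 3 lower (12%, against 12.0%), and the median was 0.08. SERPINH1, the collagen chaperone, rose from 434 and 403 CPM to 570.1 and 624 CPM of footprints (log2 change 0.51, SE 0.12, adjusted p = 0.00314), while the chains it folds lay mostly below 0. P3H4, a cofactor of collagen lysine hydroxylation, fell from 12.1 and 12.1 CPM to 5.79 and 6.48 CPM of footprints (log2 change -0.98, SE 0.234, adjusted p = 0.00346) and passed with any 1 footprint library left out. P3H3 (-0.61), its partner, and the crosslinking enzyme LOXL2 (-0.50) also fell, and SERPINH1 missed without sgMETTL13 replicate 2 (0.45, adjusted p = 0.113).

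Of 25 other matrix glycoproteins 4 were higher (16%, against 8.94% of all genes) and 1 lower (4%, against 12.0%), with a median of 0.10. CCN1, a matricellular integrin ligand, rose from 79.7 and 72.2 CPM of footprints to 160 and 197 CPM in sgMETTL13 (log2 change 1.23, SE 0.141, adjusted p = 5.26e-07), and CCN2 from 73.4 and 67.9 CPM to 133 and 147 CPM in sgMETTL13 (log2 change 0.98, SE 0.137, adjusted p = 1.22e-05). Both passed with any 1 footprint library left out, and their mRNA was higher in both sgMETTL13 libraries without passing, at log2 changes of 0.68 and 0.91. FBN1 (0.99) and LTBP1 (0.70), which form microfibrils and store TGF-beta on them, rose as well. Of 29 other proteases and regulators 4 were higher (13.8%, against 8.94%) and 2 lower (6.9%, against 12.0%), with a median of -0.04. SERPINE2 (0.56) and SERPINB5 (0.43), both serpins, rose, and PCSK7 (-0.69), a proprotein convertase, and PLAUR (-0.42), the urokinase receptor, fell. Of FBN1, LTBP1, LOXL2, P3H3, SERPINE2, SERPINB5, PCSK7 and PLAUR, each lost its call without sgControl replicate 2 and without sgMETTL13 replicate 2, with adjusted p from 0.0979 to 0.468. LOXL2 (adjusted p = 0.0857), P3H3 (adjusted p = 0.0926) and SERPINB5 (adjusted p = 0.0545) also lost it without sgMETTL13 replicate 1.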

How the data were processed

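Raw counts per gene symbol for 8 libraries were deposited by the authors in 1 table (unit: counts). Per the submitters' processing notes, cutadapt 1.18, UMI-tools, Bowtie 1.2.2, HISAT2 2.0.4 and featureCounts were used with the hg38 build; their order, the annotation, the strand setting and the treatment of reads with several positions are not given in the sources used here. All columns were used. The 91 genes were found by symbol, and all matched RefSeq's GRCh38.p14 gene table, from which coordinates and promoter sequences come.

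Samples were grouped by their labels. The counts went into edgeR 4.0.16 in R 4.3.3 (quasi-likelihood F test, TMM factors, default expression filter) within each assay over all genes, and translational efficiency was the interaction term of 1 model over 8 libraries. P-values were adjusted by Benjamini-Hochberg over all genes tested, with a threshold of 0.05, and each SE was the size of the log2 change divided by the root of F. The fits were tested on simulated data. Depth is stated with the libraries, and limits from a count of 0 cover counting error only.

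The members and the gene lists (adhesion complex, other matrix receptors, collagen and laminin folding, matrix glycoproteins, other proteases, epithelial and other cell type markers) were chosen with earlier results of these data known. Genes named are those past the threshold, a set always named (METTL13, FN1, TIMP1 to TIMP3 and the main integrins, laminins, collagens and MMPs), the 5 members of smallest p in each contrast, and up to 4 passed genes per list; ITGA1, COL1A1, COL4A5, COL4A6 and other names outside this rule were chosen after their values were seen. The values of 1 always-named gene are not reported here. A planned choice by level per coding length and a description of protein composition needed lengths and proteins not used here, so levels are not compared between genes and chain ratios are not per length. Alternatives were DESeq2 1.42.0, relative log expression factors, no expression filter, a replicate block, 1 model of all libraries, and leaving out each library.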

Additional observations from a re-analysis of the deposited data

How the results depend on the processing

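Over all alternatives no named value that passed in either fit changed its sign, although values that passed in neither did so at up to 37 of 104 (without sgMETTL13 RNA replicate 1). In footprints 3 genes of the 91 were higher and 5 lower (15.7% of the 51 tested, against 21.0% of all genes). DESeq2, whose own filter left 42 of these genes, gave 2 higher and 2 lower (9.52%, against 16.9% of all genes). The replicate block gave 1 higher (MMP1) and 4 lower (COL18A1, COL5A3, COL7A1, MMP15), or 9.8% of 51, against 16.1% of all genes. One model of all 8 libraries, which shares the wide RNA spread, gave 0 higher and 0 lower. With 1 footprint library left out, 0 to 6 were higher and 2 to 10 lower; the lone library of an arm is then assumed to vary like the others. Without a filter 8 of 84 passed (9.52%, against 17.3% of all genes), with LAMB1 in and COL4A1 out. Relative log expression factors left the same 8 of 51 as the main fit (15.7%, against 20.5% of all genes). In mRNA 0 to 7 were higher and none lower with 1 RNA library left out, and for efficiency 0 to 2 were higher and 0 to 4 lower with any 1 library left out. The 7 in mRNA were ITGA1, ITGA6, ITGAV, ITGB1, ITGB6, ITGB8 and MMP16, and all came from the fit without sgMETTL13 RNA replicate 2. There the share called was lower among the tested genes of the 91 than among all genes. That fit rests on 1 library in its arm, sgMETTL13 RNA replicate 1. The labels do not tie same-numbered libraries together. Their deviations from the group means had a correlation across genes of -0.18 in footprints and 0.37 in RNA, so the replicate block is given only here. Depth limits the 31 genes under 5 counts in every footprint library, for which no change could be detected.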
